A study of Mus musculus with 6 samples.

Results

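The PTH receptor, its peptide ligand PTHrP and the proteins that couple it to signaling or turn it off were examined in *ex vivo* cortical bone tubes. The 9 genes were chosen by symbol, as all rows of the deposited table that name them, out of 31508 gene symbols on the array. They were *Pthr1* (the older symbol of *Pth1r*), *Pthlh*, *Gnas*, *Gnaq*, *Gna11*, *Arrb1*, *Arrb2*, *Adrbk1* (now *Grk2*) and *Slc9a3r1*. Together they were represented by 24 probes. The bone tubes were tibia and femur shafts of C57BL6 mice, given as 3 months old in the labels, with the marrow flushed out and surface cells digested away. After an overnight culture in medium with serum, the tubes were left untreated (control) or received 250 nM PTH 1-34 for 24 hours, with 3 arrays for each group. All mice were of a single strain and no genetic change was named in either group. Each preparation pooled bones of 4 to 5 mice, so an array gives the average of several animals and of all cells left in the bone.

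PTH1R, the product of *Pthr1*, is a class B G protein-coupled receptor that binds both PTH and PTHrP and is the main PTH receptor of cells of the osteoblast and osteocyte lineage. The occupied receptor activates Gs, which stimulates cAMP synthesis, and the Gq and G11 proteins, which stimulate phospholipase C. Receptor kinases then phosphorylate it, β-arrestins bind and uncouple it from G proteins, and it is internalized, while the scaffold NHERF1 ties it to the cytoskeleton.

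After 24 hours of PTH the receptor transcript was lower, by about 2.5-fold on the 2 probes that were called and 1.67-fold on the third. No other member changed beyond the limit of the test. *Pthr1* fell on 2 of its 3 probes at an adjusted p under 0.05 (limma). The other probe was also lower on every PTH array after normalization, but not on the deposited scale. The 3 G protein alpha subunits, both β-arrestins, the receptor kinase and NHERF1 had 11 tested probes, none of which passed. Their changes ran from -0.33 to 0.32 on the log2 scale. *Pthlh* could not be assessed, as its signal was not above background on any array.

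The sequences upstream of *Pthr1* are shown first because it was the member that changed. RefSeq (GRCm38.p6) gives 3 start sites for *Pth1r*, all on the minus strand of chromosome 9, and the 250 bases before each are printed 5′ to 3′. Capitals mark matches, on either strand, to the cAMP response element TGACGTCA, to its shorter core TGACG, which lies within the longer motif, and to the GC box GGGCGG.
Pth1r start 1 (chr9:110747146-110747395, minus strand): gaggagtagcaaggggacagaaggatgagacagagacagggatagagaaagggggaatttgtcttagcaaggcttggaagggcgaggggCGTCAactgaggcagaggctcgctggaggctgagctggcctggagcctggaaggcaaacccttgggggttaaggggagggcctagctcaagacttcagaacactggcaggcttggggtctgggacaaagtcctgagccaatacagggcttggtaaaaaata
Pth1r start 2 (chr9:110743687-110743936, minus strand): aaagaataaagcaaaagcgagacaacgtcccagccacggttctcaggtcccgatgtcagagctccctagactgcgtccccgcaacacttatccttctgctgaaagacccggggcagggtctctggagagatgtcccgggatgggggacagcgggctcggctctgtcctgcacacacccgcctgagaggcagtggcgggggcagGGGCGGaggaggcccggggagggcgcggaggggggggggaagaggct
Pth1r start 3 (chr9:110742611-110742860, minus strand): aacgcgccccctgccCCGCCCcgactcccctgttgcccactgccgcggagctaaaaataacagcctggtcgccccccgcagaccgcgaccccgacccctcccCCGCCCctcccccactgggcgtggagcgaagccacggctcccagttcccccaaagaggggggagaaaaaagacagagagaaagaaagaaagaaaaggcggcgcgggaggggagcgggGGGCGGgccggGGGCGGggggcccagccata
Matches were searched from 250 bases before to 50 bases after each start. The window of start 1, with a GC content of 54.3%, held 1 match to the shorter core, beginning at position -161 from the start site, and no GC box. The windows of starts 2 and 3 were richer in GC, at 68% and 69.3%, and held 1 GC box at -47 and 4 GC boxes at -235, -148, -31 and -20. The full cAMP response element was in none of the 3. Among 32851 windows of the same length in the table, 1.79% held the full element, 20.81% the shorter core and 35.66% a GC box. For the other members, 8 windows of 5 genes were listed, of which none held the full element, 3 held the shorter core (all at *Gnas*, 2 of them overlapping windows) and 6 held a GC box. *Arrb1*, *Arrb2* and *Grk2* had no window in the table. These matches describe the letters only, and which start site is used in the bone tubes was not measured, since the position of the probes within the transcripts was not used here.

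The deposited values are linear probe signals, and the levels given here are log2 signals after background correction and quantile normalization. The test took in 16214 of 45281 probes, those with detection p-values under 0.05 on 3 or more of the 6 arrays. Of the 24 member probes, 14 were tested, 13 of them above background on all 6 arrays, 8 were above background on no array and 2 on 1 or 2 arrays. The tested probes covered 8 of the 9 genes. Between 34.2% and 38.4% of all probes were above background on each array. Mean deposited signal was 298 to 349 on 5 of the arrays and 429 on PTH replicate 3, the brightest. Signals of different probes are not set against each other, since a brighter probe need not mean more transcript.

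*Pthr1* was measured by 3 probes. The probe ILMN_2650356 (probe 1) gave deposited signals of 904, 1259 and 1014 on control arrays 1 to 3 and of 458, 454 and 646 on PTH arrays 1 to 3. After normalization its log2 signal was 9.98, 10.19 and 9.87 in control tubes and 8.84, 8.47 and 8.62 with PTH. On both scales the highest PTH array was well under the lowest control array. The mean fell from 10.01 ± 0.16 (SD, n = 3) to 8.64 ± 0.18 (SD, n = 3). The log2 fold change was -1.37 (95% interval -1.72 to -1.02, SE 0.15), which is 2.59-fold lower with PTH, with an adjusted p of 0.00693 (limma, Benjamini-Hochberg over all tested probes). Only 33 of the 16214 tested probes, itself included, fell by as much.

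Probe 2, ILMN_2850309, gave log2 signals of 9.22, 9.34 and 9.32 in control tubes and 7.94, 7.92 and 8.11 with PTH. The arrays of each group lay close together, and the groups again did not overlap. The log2 fold change was -1.30 (95% interval -1.59 to -1.02, SE 0.12, limma adjusted p = 0.00293), or 2.47-fold lower. The intervals of both called *Pthr1* probes overlapped over most of their length.

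Probe 3, ILMN_2635728, read 7.63, 7.35 and 7.43 in control tubes and 6.37, 6.69 and 7.13 with PTH. Its groups did not overlap after normalization, but PTH replicate 3 came close to the control arrays. On the deposited scale that array, at 297, was above the control signals of 256 to 266. The log2 fold change of -0.74 (95% interval -1.21 to -0.27) did not pass (limma adjusted p = 0.144). Over the 6 fits that each leave out 1 array it ran from -0.93, without PTH replicate 3, to -0.56, without PTH replicate 1. The fall on probe 3 was smaller than on probe 1 by 0.63 on the log2 scale, and the ranges of that difference overlapped between the groups. An exact permutation test (two-sided) gave p = 0.3, but as 3 arrays against 3 allow no p below 0.1, it cannot settle whether the probes differ.

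In all, 2 of the 14 tested member probes were called, both lower and both of *Pthr1*, where 0.993% of all tested probes were called lower. On 4 of the 14, the 3 of *Pthr1* and the probe of *Slc9a3r1*, every PTH array was below every control array, which held for 10.5% of all tested probes. On none of the 14 was every PTH array above, against 10.3% of all tested probes. The median log2 fold change was -0.12 over the 14 member probes, -0.09 over the 11 that do not read *Pthr1*, and 0.00 over all tested probes. The intervals of both called *Pthr1* probes lay below the interval of every other member gene.

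**Figure D1:**
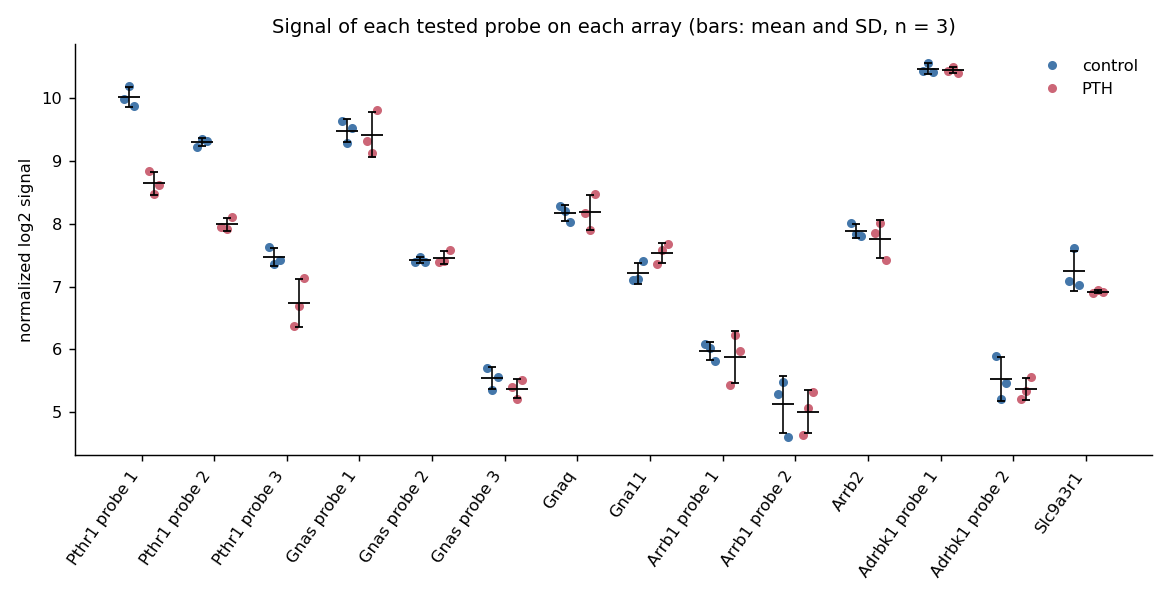
Normalized log2 signal (vertical axis) of the 14 tested member probes on the 3 control arrays (blue) and the 3 PTH arrays (red), with horizontal lines for the mean and bars for the SD. The groups are wide apart for *Pthr1* probes 1 and 2, with means of 10.01 against 8.64 for probe 1, whereas the points of the G proteins, arrestins and *Adrbk1* mix.

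Cell markers of the bone tubes moved in the same comparison. Of 6 osteocyte markers 5 were tested, and 1 of their 5 probes, that of *Mepe* at -1.02, was called lower. Of all tested probes 0.993% were called lower. On 3 of the 5 every PTH array was below every control array, as on 10.5% of all tested probes. *Dmp1*, *Sost* and *Phex* changed by -1.21, -1.21 and -0.88 without a call, and the median over the 5 probes was -1.02. The list did not move in 1 direction only. On the probe of *Pdpn* every PTH array was above, as on 10.3% of all tested probes. Its change of 0.70 was not called (limma adjusted p = 0.056). The normalized linear signal, summed over the brightest probe of each gene of the list, was 7427 to 8781 on control arrays and 5999 to 7181 on PTH arrays, and the defining osteocyte hormone *Fgf23* was not above background on any array. Of 10 tested osteoblast marker probes 4 were called lower, against 0.993% of all tested probes. Of these 4, 3 were probes of the single gene *Ibsp* and the other was of *Sp7*. On 8 of the 10 every PTH array was below every control array, while *Col1a2* and *Spp1* changed by 0.01 each. The summed signals of the list were 62747 to 68465 on control arrays and 53204 to 56545 on PTH arrays. The labels describe the tubes as free of surface osteoblasts, and which cells gave these signals was not tested. *Runx2*, a defining osteoblast transcription factor, was not above background on any array. In bulk RNA, fewer cells of a type and less RNA per cell cannot be told apart, and the part of these shifts in the fall of *Pthr1* was not tested.

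Markers of other cells also differed between the groups, where 0.993% of all tested probes were called lower. Red cell markers were called lower on 10 of 11 probes, 9 of the 10 being probes of the single gene *Hbb-b1* and the other of *Hba-a1* (summed signal 8593 to 10033 on control arrays and 2383 to 2651 on PTH arrays, with *Alas2* and *Slc4a1* above background on at most 2 arrays). Neutrophil markers were called lower on 7 of 11 probes, 4 of them probes of the single gene *Mpo*. The other called probes were of *Ngp*, *Ltf* and *Lcn2*, while *S100a8*, *S100a9* and *Camp* were not called. Summed neutrophil signals were 53084 to 53959 on control arrays and 34233 to 38810 on PTH arrays, with *Elane* below background. Osteoclast markers were called higher on 3 of 4 probes, where 100 of all 16214 tested probes were called higher. Their summed signals were 11825 to 13333 on control arrays and 15907 to 20513 on PTH arrays, with *Calcr* and *Atp6v0d2* below background. Of the macrophage, endothelium, fat, skeletal muscle and B lymphocyte lists no probe was called, and of the cartilage list 1 of 7 was called lower. The part of these cells in the member signals was not tested.

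*Pthlh* encodes PTHrP, the local ligand that shares the receptor with PTH. Its single probe, ILMN_2619136, gave deposited signals of 97.6 to 112 over the 6 arrays, with detection p-values of 0.25 to 0.866. It was not well above background in either group, so no change is given.

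*Gnas* encodes the alpha subunit of Gs, through which the receptor raises cAMP. On its probe 1, ILMN_2632206, the log2 signal was 9.64, 9.28 and 9.52 in control tubes and 9.32, 9.12 and 9.81 with PTH. PTH replicate 3 was the highest of the 6 and the other PTH arrays were at or below the middle of the control range, so the groups overlapped. The change was -0.06 (95% interval -0.53 to 0.40, limma adjusted p = 0.921). Before normalization PTH replicate 3 stood apart on this probe, at 1361 against 606 to 806 on the other arrays, and it was also the brightest array in all. The other tested *Gnas* probes, ILMN_1223437 and ILMN_1252926, changed by 0.04 (95% interval -0.24 to 0.32) and -0.16 (-0.50 to 0.17). The remaining 4 of its 7 probes were below background, 3 of them on all arrays and 1 on all but control replicate 1. The *Gnas* locus makes several transcripts, and which of them each probe reads was not determined here.

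*Gnaq* and *Gna11* encode the alpha subunits that lead to phospholipase C and calcium release. The tested probe of *Gnaq*, ILMN_2658443, gave 8.28, 8.20 and 8.03 in control tubes and 8.17, 7.91 and 8.47 with PTH. These values interleave, and the log2 fold change was 0.01 (95% interval -0.38 to 0.40), while the other 2 *Gnaq* probes were above background on no array. *Gna11* (ILMN_2751072) had the largest rise among the members, from 7.10, 7.12 and 7.40 in control tubes to 7.35, 7.57 and 7.67 with PTH. PTH replicate 1 lay just below control replicate 3, so the groups overlapped on that pair alone. The log2 fold change of 0.32 (95% interval -0.02 to 0.67) did not pass (limma adjusted p = 0.371).

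**Figure D2:**
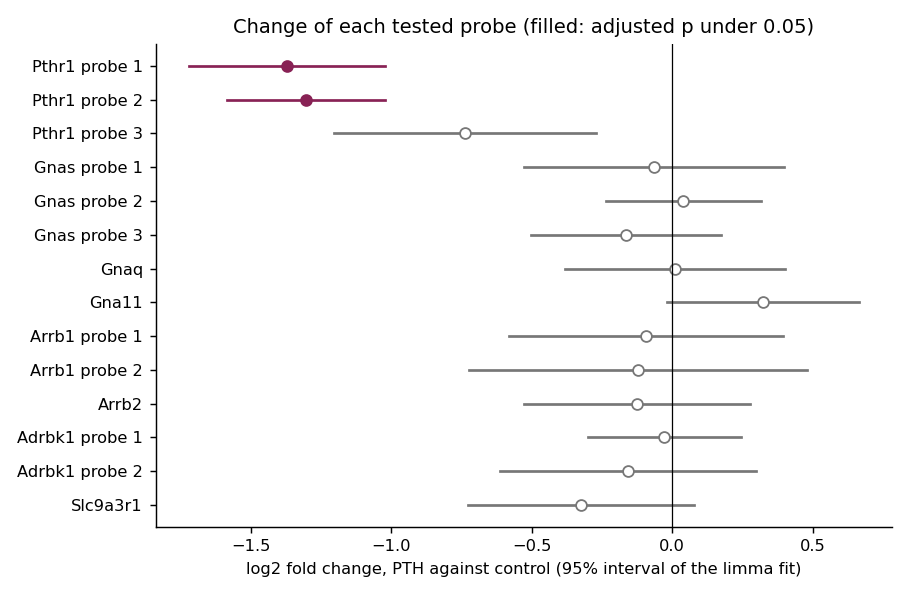
Log2 fold change of PTH against control (horizontal axis) for each tested member probe, with the 95% interval of the limma fit and filled points for an adjusted p under 0.05. Only *Pthr1* probes 1 and 2, at -1.37 and -1.30, are filled, and every interval outside *Pthr1* includes 0.

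*Adrbk1* encodes GRK2, a kinase that phosphorylates occupied receptors. Its probe ILMN_3000318 read 10.43, 10.56 and 10.41 in control tubes and 10.43, 10.49 and 10.40 with PTH. The 6 values lie within a narrow band, and the change was -0.03 (95% interval -0.30 to 0.24, limma adjusted p = 0.945). Its other probe, ILMN_2773496, near background, changed by -0.16 (-0.61 to 0.30).

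The β-arrestins bind phosphorylated receptor, end G protein coupling and bring the receptor to clathrin-coated pits. *Arrb2* (ILMN_2700848) gave log2 signals of 8.003, 7.83 and 7.81 in control tubes and 7.85, 8.004 and 7.41 with PTH. The groups overlapped, with PTH replicate 3 the lowest, and the change was -0.12 (95% interval -0.53 to 0.28). Of the 5 probes of *Arrb1*, 1, ILMN_3096335, was above background on all 6 arrays and changed by -0.09 (-0.58 to 0.40). Another, ILMN_1229853, was above background on 4 arrays and changed by -0.12 (-0.72 to 0.48), and the other 3 were not tested.

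*Slc9a3r1* encodes NHERF1, a PDZ-domain scaffold that binds the receptor tail and links it to ezrin and actin. Its log2 signal on ILMN_1240256 was 7.09, 7.62 and 7.03 in control tubes and 6.90, 6.94 and 6.91 with PTH. The PTH arrays were nearly equal and all below the control arrays, of which control replicate 2 stood above the others. The change was -0.33 (95% interval -0.73 to 0.08, limma adjusted p = 0.446), and without control replicate 2 it was -0.14. On the deposited scale, at 206, 299 and 223 in control tubes and 186, 214 and 269 with PTH, the groups overlapped.

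**Figure D3:**
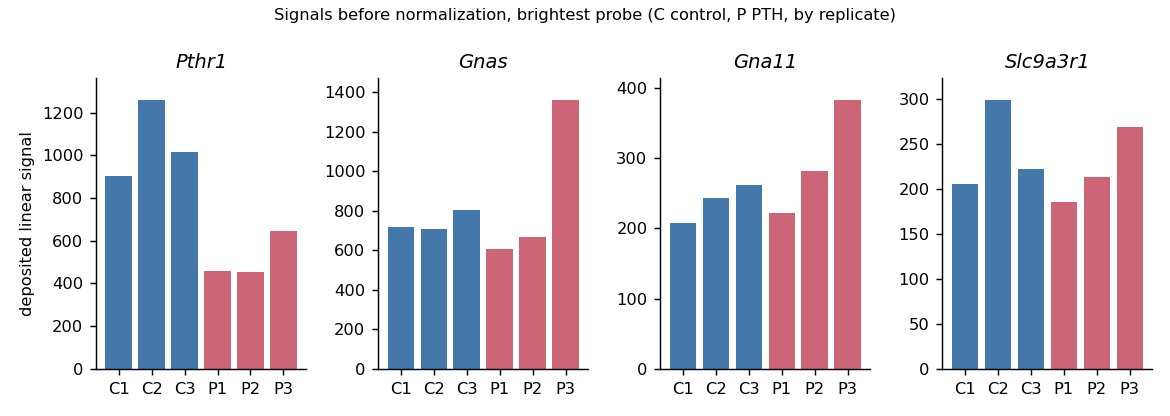
Deposited linear signal (vertical axes, from 0, with a scale of its own in each panel) of the brightest probe of *Pthr1*, *Gnas*, *Gna11* and *Slc9a3r1* on each control (C, blue) and PTH (P, red) array by replicate number, before normalization. The PTH bars of *Pthr1*, at 454 to 646, are all below its control bars, whereas *Gnas* stands at 1361 on PTH replicate 3 alone.

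Over the 11 tested probes outside *Pthr1*, 8 changes were below 0 and 3 above, and adjusted p-values ran from 0.371 to 0.987 (limma). The outermost bounds of their intervals were -0.73 and 0.67. A fall of up to 1.66-fold or a rise of up to 1.59-fold thus lies within the intervals of at least some of these probes, so a p that missed the limit does not show that these transcripts were unchanged.

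The partners and relatives of these proteins were read from 11 lists of 98 genes, of which 97 were on the array with 174 probes. Of these, 79 probes of 53 genes were tested, 1 probe was called lower and none higher (limma), where 0.993% of all tested probes were called lower. An unadjusted p under 0.05 was found for 9 of the 79, and for 14.6% of all tested probes. The lists as a whole thus stood near these background shares. The median log2 fold change over the 79 probes was -0.01.

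The called gene was *Ramp1*, which encodes a receptor activity-modifying protein, an accessory subunit of calcitonin-family receptors. It gave 7.59, 7.60 and 7.12 in control tubes and 6.42, 6.29 and 6.39 with PTH. All PTH arrays lay well below the lowest control array. The log2 fold change was -1.07 (95% interval -1.44 to -0.70, limma adjusted p = 0.0221), or 2.10-fold lower. This call depended on the arrays: leaving out 1 array at a time gave changes of -1.23 to -0.98 and adjusted p-values of 0.0207 to 0.101, and it passed only without control replicate 3. It also did not pass under median scaling (adjusted p = 0.0704) or with the replicate number as a block (0.0743). The tested probes of *Ramp2* and *Ramp3*, named here because they complete the family, changed by 0.24, -0.01 and -0.03 and did not pass.

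Other receptors and ligands were mostly below background. *Pth* and the second PTH receptor, *Pth2r*, were above background on no array and *Pth2*, the ligand of that receptor, on 1 array. Of 13 further class B hormone receptors 12 were on the array with 27 probes, none of which was tested, and 7 of the genes were above background on no array and the other 5 on at most 1. *Pthr1* was thus the only gene of the class with a tested probe among those listed. Of 6 other Gs-coupled receptors described in bone cells 2 were tested and not called, the larger change being that of *Adora2b*, an adenosine receptor, at 0.16.

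Among the other G protein alpha subunits, 9 probes of 7 genes were tested and none passed. The largest change was that of *Gna13*, an alpha subunit outside the Gs and Gq classes, with 5.34, 5.77 and 5.87 in control tubes and 6.07, 6.04 and 6.35 with PTH. The groups did not overlap, but the change of 0.49 (95% interval 0.09 to 0.90) had a limma adjusted p of 0.248, and the other tested *Gna13* probe changed by 0.12 (-0.20 to 0.44). Of the beta and gamma subunits 16 probes of 11 genes were tested without a call, with *Gnb5* changing most, at 0.28 and 0.24 on its 2 tested probes. A probe of *Ric8b*, a chaperone of Gs alpha proteins, changed by 0.74 (95% interval 0.15 to 1.34, limma adjusted p = 0.234), and by 0.49 without PTH replicate 3. The other *Ric8b* probe, above background on all 6 arrays, changed by 0.18 (-0.60 to 0.96).

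The machinery that takes up and returns the receptor was measured on most of its genes and gave no call. Of the other receptor kinases 3 probes were tested, with *Gprk5* (now *Grk5*) changing most, at 0.25. Clathrin, its adaptor AP-2, dynamin and the small GTPase *Arf6* had 19 tested probes of 10 genes. The largest of these changes was -0.50, on a probe of *Ap2a1* (limma adjusted p = 0.291) whose value was -0.32 without PTH replicate 3, while the other *Ap2a1* probe changed by -0.21. Retromer and sorting nexin 27, which return receptors from endosomes, had 9 tested probes of 5 genes, and *Vps26b* changed most, at -0.18. Of the scaffold and ezrin family *Rdx*, above background on 3 arrays, changed by -0.37, while none of the 9 tested probes for phospholipase C beta, inositol trisphosphate receptors and protein kinase C passed. The largest of their changes was -0.62, on a *Prkcb* probe above background on 5 arrays (limma adjusted p = 0.268), which was -0.37 without PTH replicate 1. The other *Prkcb* probe, above background on all 6, changed by -0.04 (95% interval -0.34 to 0.25).

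**Figure D4:**
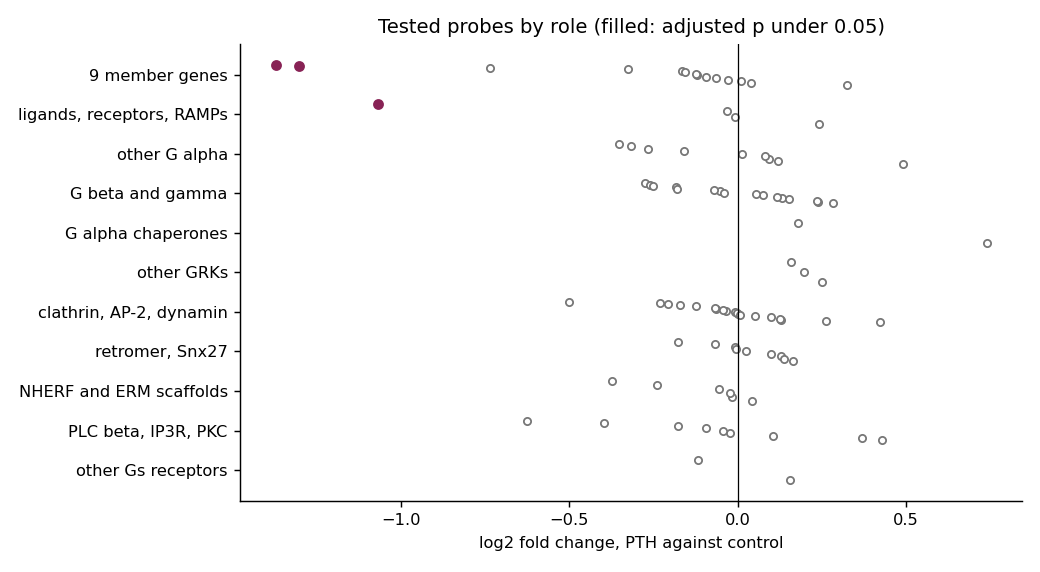
Log2 fold change of PTH against control (horizontal axis) of every tested probe of the 9 member genes and of the related lists, by role (rows), with filled points for an adjusted p under 0.05. The filled points are the 2 *Pthr1* probes and *Ramp1*, at -1.07.

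The genes whose signal followed that of *Pthr1* most closely were found by the root mean square difference from its probe 1 over the 6 arrays, on log2 signals centered on each probe's mean. Among the brightest tested probes of 11978 other genes, the 5 closest were *Nrn1*, which encodes neuritin (0.07), the clone *F830002E14Rik* (0.12), *Rgs16* (0.14), *Ptprz1*, a receptor tyrosine phosphatase (0.15) and *Rgs3* (0.15). *Rgs16* and *Rgs3* encode regulators of G protein signaling, which speed the GTPase of alpha subunits. By the same measure *Pthr1* probes 2 and 3 were 0.15 and 0.45 from probe 1, and the 5 other genes lay within the distance between called probes of the receptor itself. As chosen for likeness, all 5 were lower with PTH, with log2 fold changes from -1.48 for *Rgs16* to -1.20 for *Ptprz1*. On *Rgs16* the log2 signals were 9.91, 9.95 and 9.69 in control tubes and 8.40, 8.43 and 8.28 with PTH. On *Rgs3* they were 8.83, 8.84 and 8.84 and then 7.47, 7.50 and 7.45. Points of 1 array share its RNA and its normalization, and the likeness is a description over 6 arrays.

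The fall of *Pthr1* was recomputed under other settings. Probe 1 changed by -1.19 under quantile normalization without background correction and by -1.39 with cyclic loess. With 1 array left out at a time it changed by -1.47 to -1.28, and its adjusted p stayed under 0.05 in 6 of 6 fits (0.018 to 0.0442, limma). Probe 3 passed in 2 of 15 alternative fits. These were quantile normalization alone (-0.42, limma adjusted p = 0.0239) and an offset of 50 (-0.58, limma adjusted p = 0.0495). In the others its adjusted p was as high as 0.605, under median scaling (-0.62, limma).

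**Figure D5:**
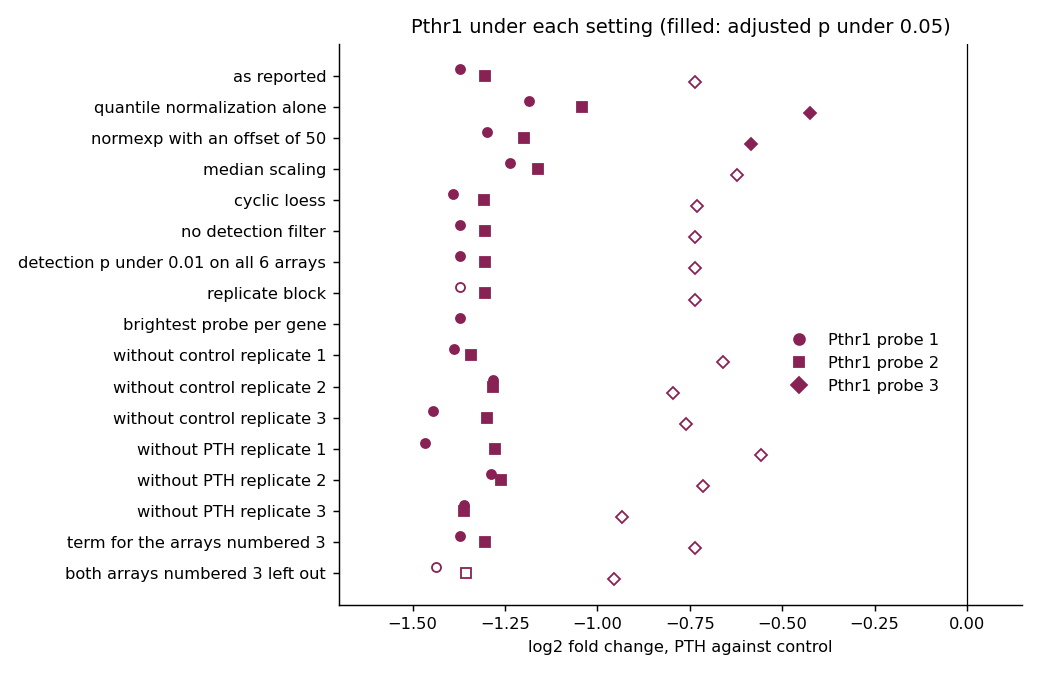
Log2 fold change of the 3 *Pthr1* probes (horizontal axis) as reported and under each alternative setting (rows), with filled symbols for an adjusted p under 0.05. All symbols lie below 0, probes 1 and 2 miss the limit with both arrays numbered 3 left out, and probe 1 also with the replicate block.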

How the data were processed

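RNA of cortical bone tubes was hybridized to an Illumina mouse array, with 3 control and 3 PTH arrays grouped by their labels. The authors deposited the linear intensity of 45281 probes on each of the 6 arrays, neither normalized nor background subtracted, from GenomeStudio (no version given). Beside each signal the authors deposited a detection p-value that compares the probe with the negative controls of the array. No genome build is given for the probes in the sources used here. The authors' normalized values were not used.

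Signals were background corrected by normexp through the detection p-values with an offset of 16, quantile normalized and taken to log2 (neqc, limma 3.58.1, R 4.3.3). Probes with a detection p under 0.05 on at least 3 of 6 arrays were tested with lmFit and eBayes, adjusted by Benjamini-Hochberg over 16214 probes, and called at an adjusted p under 0.05. The labels do not say whether the 3 preparations of a group came from separate experiments, so p-values measure the spread between these arrays. The number of arrays limits the precision.

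The members and the lists of related and marker genes were chosen with earlier results of these data known, and 1 red cell marker is not reported here. All member probes are counted, and the tested ones are given with their values. From each related list, genes with a called probe are named, otherwise the probe with the largest change, together with the 5 genes most like *Pthr1*. Older symbols were matched through the RefSeq gene table (GRCm38.p6). Alternatives were other background corrections, normalizations and detection filters, the brightest probe per gene, the replicate number as a block and each array left out. A term for the arrays numbered 3, and leaving both out, were chosen later, with the data in view. No slide is named in the files, so that block was not run.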

Additional observations from a re-analysis of the deposited data

How the results depend on the processing

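The count of called member probes, 2, was 2 or 3 under the other backgrounds, normalizations and filters and was 2 with each array left out. It was 1 with the replicate number as a block, 1 with the brightest probe per gene, which leaves *Pthr1* a single probe, and 0 without both arrays numbered 3, a setting added after the data were seen that leaves 2 arrays a group. With the block *Pthr1* probe 1 kept its change of -1.37 with an adjusted p of 0.0517, and without the arrays numbered 3 it changed by -1.44 with an adjusted p of 0.132 (limma). The cause was not tested. The replicate numbers were not taken to pair the samples. Deviations of same-numbered arrays correlated by 0.067, 0.0636 and 0.273, and of the 3 only control replicate 3 correlated best with its own number. The share of probes above background did go by number, however. It was 34.8%, 36.3% and 38.4% on control arrays 1 to 3 and 34.2%, 36.1% and 38.4% on PTH arrays 1 to 3. Whether same-numbered arrays shared a preparation or run was not tested. With the block 64 of all tested probes were called, against 261 without it. Leaving out 1 array at a time gave -1.47 to -1.28 for probe 1, and called probe 2 in 6 of 6 fits and probe 3 in 0 of 6. The 11 member probes outside *Pthr1* passed in 0 of 168 fits, with a lowest adjusted p of 0.235 (limma), and 8 of them changed sign in at least 1 fit. Median scaling moved the median of all probes to 0.11, and *Pthr1* probe 1 changed by -1.24 there. The 8 member probes below background on every array, that of *Pthlh* among them, allow no statement on change.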
